A study of Mus musculus with 16 samples.

Results

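Open chromatin was described at Aldh1a1 and 6 further genes of retinoic acid signalling in mouse hematopoietic stem cells (HSCs). The genes were Aldh1a1, Aldh1a7, Rara, Rarb, Rarg, Rxra and Cyp26b1. Peaks of 16 ATAC-seq libraries were merged wherever they overlapped, and 33773 regions with a call in 2 libraries or more were retained. A region belonged to the set if its nearest protein-coding gene, within 100 kb of the median summit, was one of the 7 genes. This gave 43 of the 33773 regions: 2 at Aldh1a1, 11 at Rara, 9 at Rarb, 5 at Rarg, 9 at Rxra, 7 at Cyp26b1 and 0 at Aldh1a7. The genes follow the pathway, but Aldh1a1 was chosen by its call counts in old and young HSCs before transplantation. The 2 Aldh1a1 regions are therefore described without a test between old and young in those libraries, with both stages together, and between stages. Of the Rara regions, 2 also lay within the predicted gene Gm46294 and were counted for Rara.

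The libraries fell into 4 groups of 4. Old pre libraries came from HSCs of male B6 mice aged 24 months, 1 mouse per replicate. Young pre libraries came from male B6 mice aged 8 to 12 weeks, pooled from 3 to 4 mice per replicate. For the old post and young post libraries, 1000 HSCs of such an old donor or young pool were transplanted into 5 lethally irradiated young BJ mice together with 300000 BJ marrow cells depleted of Sca-1. After 3 months HSCs were sorted from the combined marrow of those recipients. Every library was made from 10000 HSCs with the Omni-ATAC protocol, in which the Tn5 transposase inserts adapters where DNA is accessible. No label mentions a donor marker in the sort of post HSCs, so donor HSCs and those of recipients or helper marrow cannot be told apart in post libraries. In a bulk library, fewer cells with an open region and a weaker signal in each cell cannot be told apart either.

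Retinol is oxidised to retinal and then to retinoic acid, and the last step is made by retinaldehyde dehydrogenases such as Aldh1a1. Retinoic acid binds the receptors Rara, Rarb and Rarg, which act on DNA as dimers with a retinoid X receptor such as Rxra, and Cyp26 enzymes such as Cyp26b1 break it down. In hematopoietic cells, aldehyde dehydrogenase activity is widely used to enrich primitive cells, and retinoic acid signalling has been linked to the dormancy of HSCs.

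Lists held between 5687 peaks in old pre 4 and 32530 in young post 1. The old pre lists held 27302, 30520, 17299 and 5687 peaks, and the young pre lists 28298, 23044, 21346 and 9614. The old post lists held 23287, 28498, 31003 and 14008 peaks, and the young post lists 32530, 30784, 31409 and 32007. Old pre 4, young pre 4 and old post 4 were the shortest, and the 4 young post lists were among the 5 longest. Read depth is unknown here, so a region without a peak is called absent from a list, not closed. Pre and post libraries never shared a transposition day, so stage and day cannot be told apart. Of 10 HSC marker genes, 9 had a region and 7 had a region in at least 15 libraries, with none at Ly6a. Among markers of other cell types, a region was present at 2 of 6 genes of T and NK cells, 1 of 4 of B cells and 2 of 6 of granulocytes and monocytes. The same held for 3 of 4 erythroid, 3 of 3 megakaryocyte and 4 of 4 endothelial and stromal genes. A region in at least 15 libraries was present at 2 T and NK cell, 0 B cell and 1 granulocyte and monocyte genes. By that measure there were 2 erythroid, 3 megakaryocyte and 0 endothelial and stromal genes. The part of such cells in the results was not tested.

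The sequences before 4 RefSeq starts are shown because the results turn on which of them carried a peak. All are from RefSeq on GRCm38.p6, 250 bases ending at the base before the start, written in the direction of the gene. The Aldh1a1 start that carried a peak was preceded by chr19:20601718-20601967 on the + strand. The Aldh1a7 start, with no peak, was preceded by chr19:20727557-20727806 on the - strand. The upstream Aldh1a1 start, with no peak, was preceded by chr19:20492333-20492582 on the + strand. The Rarb start, with a peak in 13 libraries, was preceded by chr14:16575477-16575726 on the - strand. Capitals mark the longest run shared by Aldh1a1 and Aldh1a7, and in Rarb a direct repeat of the retinoic acid recognition sequence.
Aldh1a1, start with a peak: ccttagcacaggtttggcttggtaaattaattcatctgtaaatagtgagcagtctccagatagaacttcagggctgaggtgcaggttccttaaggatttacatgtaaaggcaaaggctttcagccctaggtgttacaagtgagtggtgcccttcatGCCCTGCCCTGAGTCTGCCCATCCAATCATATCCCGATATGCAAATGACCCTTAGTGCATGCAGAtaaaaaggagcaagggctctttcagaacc
Aldh1a7: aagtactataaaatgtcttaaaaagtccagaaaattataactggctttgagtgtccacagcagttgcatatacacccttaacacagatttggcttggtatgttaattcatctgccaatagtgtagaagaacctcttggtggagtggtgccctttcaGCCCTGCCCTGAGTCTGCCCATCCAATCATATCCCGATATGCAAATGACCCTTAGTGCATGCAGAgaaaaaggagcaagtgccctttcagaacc
Aldh1a1, upstream start: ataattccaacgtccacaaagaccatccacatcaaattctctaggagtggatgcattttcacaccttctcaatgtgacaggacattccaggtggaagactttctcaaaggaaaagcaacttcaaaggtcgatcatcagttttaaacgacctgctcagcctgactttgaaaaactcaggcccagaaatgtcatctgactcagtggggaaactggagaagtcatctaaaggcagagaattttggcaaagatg
Rarb: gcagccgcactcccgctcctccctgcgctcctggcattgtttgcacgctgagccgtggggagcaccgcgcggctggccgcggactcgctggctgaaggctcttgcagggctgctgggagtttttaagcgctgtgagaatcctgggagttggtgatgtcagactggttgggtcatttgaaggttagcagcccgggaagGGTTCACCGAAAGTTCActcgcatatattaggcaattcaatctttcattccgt

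The Aldh1a1 and Aldh1a7 sequences shared a run of 65 bases, from 94 to 30 bases before each start. The Aldh1a1 summit, 75 bases before the start, lay inside that run. In a global alignment of the last 100 bases, 96 of 99 aligned bases were identical. Over all 250 bases, 185 of 228 aligned bases were identical, against 148 of 213 for the peak-bearing and the upstream Aldh1a1 starts. With so long a shared run, reads that fall inside it cannot be placed in 1 of the 2 genes by sequence alone. Peaks at Aldh1a1 reached well beyond the run on both sides, and no library had a peak over the Aldh1a7 start. Whether reads were misplaced between the 2 genes was not tested, and the aligner and its settings are not recorded.

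In the same run, the 2 genes shared the recognition sequence GGGTCA on the opposite strand, 49 to 44 bases before the start, and CCAAT on the gene's strand, 72 to 68 bases before it. The single receptor motif searched, on both strands, was AGGTCA, with GGGTCA as a first variant, AGTTCA as another and GGTTCA as the last. At least 1 of them lay in 7 of the 13 promoters of the listed genes, against 43.8% of 32619 RefSeq promoters of 300 bases (250 before to 50 after the start). Such motifs repeated in the same direction and spaced by 5 bases were present in 1 of the 13 promoters, that of Rarb, against 0.0981% of all promoters. That Rarb repeat, 53 to 37 bases before the start, is known as the response element through which retinoic acid induces the gene. Repeats spaced by 1 or 2 bases were in 0 of the 13, against 0.224% and 0.27% of all promoters. GGGCGG was found in 6 of the 13 promoters (35.9% of all), CCAAT in 4 (37.6%), TATAAA in 2 (13.7%), TGTGGT in 2 (16.6%), GATAAG in 0 (7.47%) and CAGGAAGT in 0 (3.35%). The 13 include the overlapping Rara promoters at 98937696 and 98937718, whose shared GGGCGG and CCAAT sites were counted for each. A match describes letters only and shows no binding.

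Aldh1a1 oxidises retinal to retinoic acid, and Aldh1a7 is its close relative in rodents. Aldh1a1 region 1 (chr19:20600794-20602417, 1624 bp) covered the start at position 20601968. It was called in old pre 1, 2 and 3, in none of the 4 young pre libraries, and in all 4 old post and all 4 young post libraries. Before transplantation it was thus present in 3 of 4 old libraries, against 0 of 4 young, and after it in 4 of 4 of both ages. Its summit lay 75 or 76 bp before the start in all 11 libraries. Calls in at least 3 old pre and 0 young pre libraries were found for 127 of all regions, 0.376%, from which nothing is read here, since the gene was chosen by these calls.

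Set beside list length and transposition day, a call of region 1 was made in old pre 3, with 17299 peaks, and in old post 4, with 14008. It was missing from young pre 1, 2 and 3, with 28298, 23044 and 21346 peaks. Old pre 1 and 2, which called it, were made on transposition day 1, and that day held no young library. Old pre 3 and young pre 1 to 3 shared transposition day 2 with old pre 4, the shortest list, which had no peak here. The part of list length and day in these calls was not tested.

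Strength was compared within each list, since peak scores are not scaled between libraries. The authors' area score sums a peak's significance over its width. For region 1 its percentile in its own list was 74.8, 85.6 and 50.3 in old pre 1, 2 and 3. In old post libraries the percentile was 70.1, 80.0, 81.1 and 48.8, against 65.2, 62.5, 66.7 and 69.5 in young post libraries. These ranges overlapped, with old post 4 lowest. The -log10 q of the peak was 4.36, 4.93 and 3.79 in the old pre libraries, 4.77, 5.30, 5.00 and 3.72 in the old post libraries, and 4.73, 4.42, 4.61 and 4.82 in the young post libraries.

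**Figure D1:**
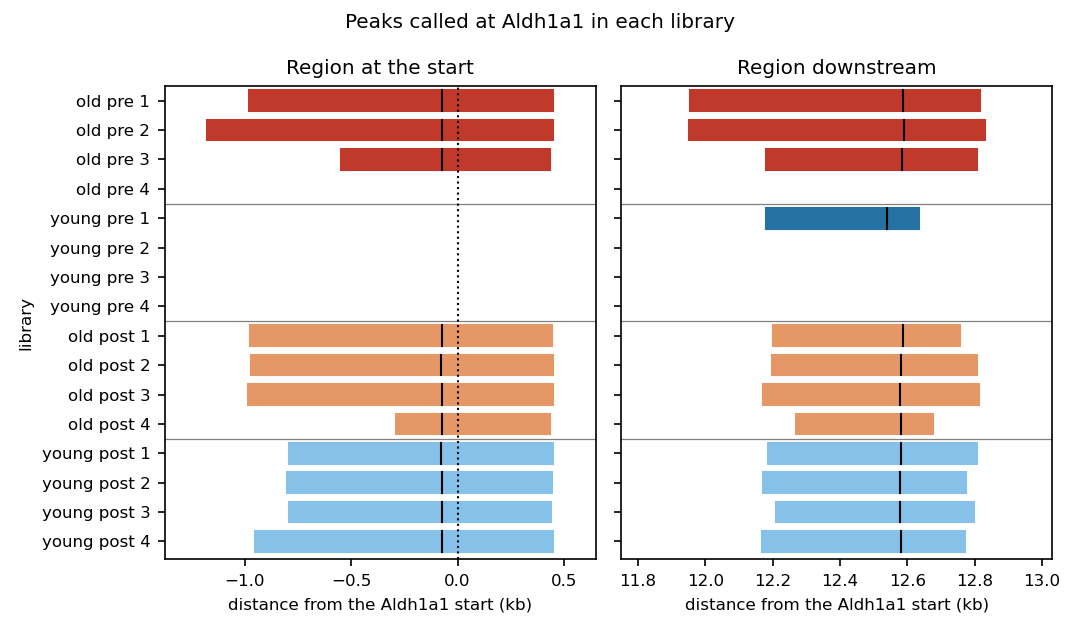
Peaks called at Aldh1a1 in each of the 16 libraries, as bars from peak start to peak end on a distance axis in kb from the start within region 1 (dotted line); black ticks are summits, and colours mark the 4 groups. Left, region 1 was present in old pre 1 to 3, in no young pre library and in all 8 post libraries; right, region 2 had a peak in young pre 1 as well.

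Percentiles in a whole list depend on how many weak peaks it holds, so region 1 was also ranked among the 12890 regions called in all 8 post libraries, a choice made after the values were seen. Its percentile there was 47.9, 56.5, 55.3 and 46.3 in old post libraries, against 20.0, 18.0, 24.7 and 28.8 in young post libraries. It averaged 51.5 ± 5.1 in old post and 22.9 ± 4.9 in young post libraries (SD, n = 4 each), a difference of 28.7 points. Every old post library ranked it above every young post library. Such a separation with old post higher was seen for 7.71% of the 12890 regions, and with young post higher for 3.09%. A difference at least as large was found for 9 other regions, 0.0698%, and the median difference over all ranked regions was 0.8 points. Within transposition day 5 the percentile was 55.3 in old post 3, against 20.0 and 18.0 in young post 1 and 2. Within day 6 it was 46.3 in old post 4, against 24.7 and 28.8 in young post 3 and 4. Transposition day 4 held old post libraries only.

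This rank depended on the regions it was set against. Among regions called in all 16 libraries, the percentile of region 1 was 3.3 to 17.2 in old post and 0.4 to 1.5 in young post libraries, a difference of 10.7 points without overlap. Separations of that kind were seen for 4.5% of the same regions with old post higher and for 5.68% with young post higher. In the libraries' own lists the difference was 4.0 points, and the groups overlapped.

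Aldh1a1 region 2 (chr19:20613918-20614798, 881 bp) lay within the gene, 12581 bp after the same start. Calls came from old pre 1, 2 and 3, young pre 1, all 4 old post and all 4 young post libraries. Its percentile in its own list was 66.8, 65.9 and 33.8 in the old pre libraries and 7.95 in young pre 1, the lowest of the 12 libraries. It was 37.2, 45.5, 60.3 and 9.91 in old post libraries, against 47.5, 33.9, 39.6 and 44.8 in young post libraries. Ranked among the 12890 regions, it stood at 6.7, 2.6, 13.4 and 8.8 in old post and at 1.5, 0.2, 0.3 and 1.1 in young post libraries. Old post was again above young post in every library, by 7.1 points on average, a difference reached by 11.6% of all ranked regions. Set against regions called in all 16 libraries, its percentile was 0.0 to 0.2 in old post and 0.1 in young post libraries, and the groups overlapped. Region 2 had the same call as region 1 in 15 of the 16 libraries.

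After transplantation both Aldh1a1 regions were called in all 8 libraries, so their calls left no age difference to test there. Against their pre libraries, region 1 gained a call in all 4 young donors and in old donor 4. A gain in all 4 young donors was common, since 2409 regions (7.13%) went uncalled in all 4 young pre libraries and were called in all 4 young post libraries. The donor-paired exact test weights each library by how readily it calls regions. Those weights gave 4.78 expected gains against the 5 observed for region 1 (8 of 8 post, 3 of 8 pre). For region 2 they gave 3.95 against 4 observed (8 of 8 post, 4 of 8 pre). These pre libraries are the ones in which the age difference was known, so no test of these gains is given.

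No library had a peak over the upstream Aldh1a1 start at position 20492583 or over the Aldh1a7 start at position 20727556. Aldh1a7 was the nearest gene of no kept region, and it is named here only through its promoter sequence.

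Regions most like Aldh1a1 region 1 were found by counting libraries with the same call. In all 16 libraries 9 regions had the same calls, and 53 had the same calls in exactly 15. By nearness to a gene the first 5 of the 9 lay at A530032D15Rik (chr1:85109217-85110123), Oxr1 (chr15:41846222-41846922), Rftn1 (chr17:50068284-50069094), Clca3a1 (chr3:144760407-144761687) and Sh3rf1 (chr8:61258192-61259368). Oxr1 encodes a protein of oxidation resistance, Rftn1 a lipid raft protein and Sh3rf1 a ubiquitin ligase with SH3 domains. The likeness describes calls only and carries no test.

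The other 41 regions were compared between ages with an exact test that conditions on the number of calls and weights the libraries. P values were adjusted with the Benjamini-Hochberg method over every region of the genome that could be tested. Over both stages, 20 of the 41 had enough calls to be tested and 0 passed an adjusted p of 0.05, against a background of 0.27% of 15182 regions (0.25% higher in old and 0.0198% higher in young libraries). Before transplantation 0 of 12 passed, against 0% of 9407, and after it 0 of 6, against 0.465% of 5163. At an unadjusted p under 0.05 the counts were 0 of 20, 1 of 12 and 0 of 6, against 4.56%, 2.29% and 1.84% of the regions tested. An exact test without library weights called 0 of them in each comparison.

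Raw calls were mostly fewer in old libraries. The counts here leave out the Aldh1a1 regions, which were chosen by such calls. With both stages together, 29 of the other 41 regions had fewer calls in old than in young libraries, against 57.6% of all regions. More calls in old libraries were found for 4 of the 41, against 7.7% of all regions. The expected number of calls allows for the length of each list. By it the median difference between observed and expected old calls was -0.02 libraries for the 41 regions and 0.0 for all regions. The library weights were fitted to these same calls, which holds the value for all regions near 0. Nothing on age is read from these medians. Before transplantation 8 of the 41 had more calls in old libraries (against 20.1% of all regions) and 13 had fewer (against 27.5%). After it 1 of the 41 had more in old libraries (against 2.2%) and 28 had fewer (against 54.1%), where the young post lists are the long ones. Per library, 31, 32, 18 and 4 of the 43 regions were called in old pre and 30, 22, 21 and 8 in young pre libraries. The counts were 23, 32, 35 and 11 in old post and 38, 34, 35 and 37 in young post libraries. The lowest counts belonged to the 3 shortest lists.

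**Figure D2:**
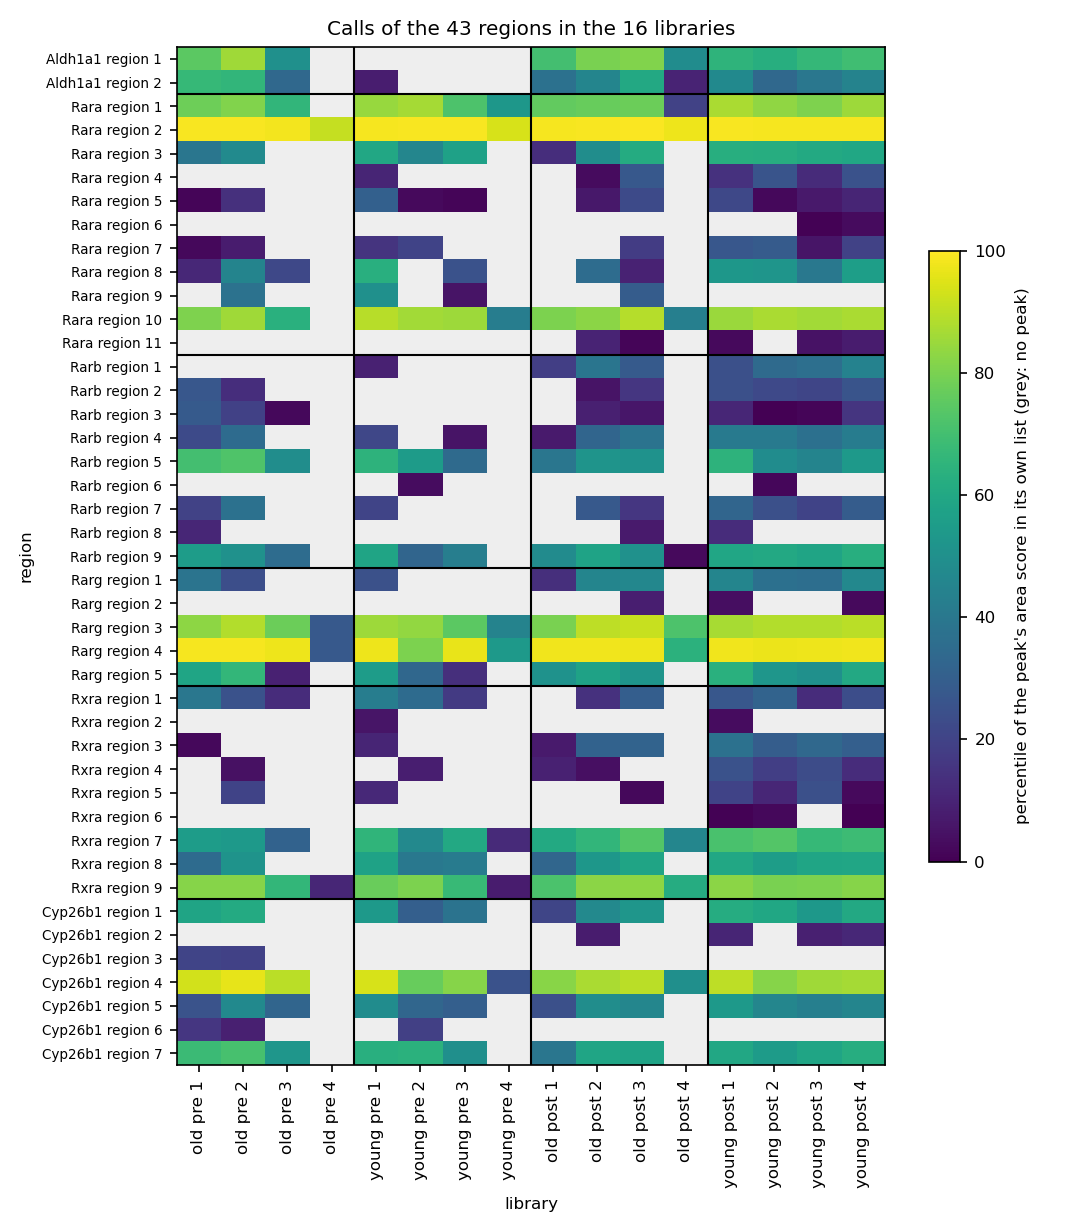
Calls of the 43 regions (down the page, by gene) in the 16 libraries (across, old pre, young pre, old post and young post, numbered 1 to 4). Colour gives the percentile of the peak's area score in its own list and grey marks no peak; 4 regions were called in all 16 libraries, and old pre 4 called only those 4.

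Rara, Rarb and Rarg are the nuclear receptors for retinoic acid, and Rara is known as the partner of PML in the fusion of acute promyelocytic leukaemia. Rara had the most regions. Rara region 1 (chr11:98936246-98938674) covered the start at position 98937696 and was called in 15 libraries, all but old pre 4. Rara region 2 (chr11:98940774-98944287), 3514 bp wide and 2196 bp after the start at 98939711, was called in all 16 libraries. It ranked among the strongest peaks of every list, at percentiles of 99.2, 99.0, 98.1 and 91.1 in old pre, 98.8, 98.9, 98.9 and 93.9 in young pre, 98.5, 98.9, 99.3 and 97.5 in old post, and 98.9, 98.7, 98.8 and 98.6 in young post libraries. Both regions lie within Gm46294 too, so their gene is uncertain. No library had a peak over the Rara starts at 98939711 and 98964872.

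Of the other Rara regions, 2 differed by 4 or more calls between stages, the size fixed for describing a region in full. Rara region 4 (chr11:98949276-98950184) was called in 6 of 8 post libraries, against 1 of 8 pre libraries. Those with a call were old post 2 and 3, all young post libraries and young pre 1. The donor-paired test expected 4.32 gains against 5 observed (exact p = 0.392, adjusted p = 1). Rara region 11 (chr11:98972158-98972517) was called in old post 2 and 3, in young post 1, 3 and 4, and in 0 of 8 pre libraries (4.19 gains expected, 5 observed, exact p = 0.426, adjusted p = 1). Rara region 9, picked out after its values were seen, went the other way. Its calls came from old post 3, against old pre 2 and young pre 1 and 3. The test expected 3.19 gains against 1 observed (exact p = 0.00236), and its adjusted p was 0.363. The remaining 6 Rara regions were called in 2 to 15 libraries.

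Rarb, itself induced by retinoic acid in many cells, had no region called in every library. Rarb region 5 (chr14:16574650-16576353) covered the start shown above, with its direct repeat, and was called in 13 libraries: old pre 1 to 3, young pre 1 to 3, old post 1 to 3 and young post 1 to 4. The libraries without it were old pre 4, young pre 4 and old post 4, the 3 shortest lists. Its percentile was 70.2, 72.6 and 49.2 in old pre libraries 1 to 3, against 64.7, 55.0 and 34.6 in young pre libraries 1 to 3. It was 39.1, 51.7 and 51.0 in old post libraries 1 to 3, against 64.8, 48.7, 45.2 and 53.6 in young post libraries. Both pairs of ranges overlapped.

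Within the Rarb gene, region 3 (chr14:16555167-16555567) resembled Aldh1a1 region 1 before transplantation, a likeness seen after the values were known. It was called in old pre 1, 2 and 3 and in 0 of 4 young pre libraries, the pattern of 0.376% of all regions. Here too, old pre 1 and 2 came from transposition day 1, without a young library. The exact test expected 1.78 old calls (exact p = 0.0107, adjusted p = 0.466). Its peaks were weak, at percentiles of 28.3, 19.5 and 2.29 in the old pre libraries. After transplantation it was called in old post 2 and 3 and in all 4 young post libraries. Rarb region 1 (chr14:16448648-16449006) was called in 7 of 8 post libraries, against 1 of 8 pre libraries, with 6 gains against 4.51 expected (exact p = 0.0928, adjusted p = 1). Rarb region 2 (chr14:16478824-16479433) was called in 6 of 8 post libraries, against 2 of 8 pre libraries, with 5 gains and 1 loss (4.96 gains expected, exact p = 1). The other 5 Rarb regions were called in 2 to 14 libraries. The most widely called of them, region 9, lay 90546 bp outside the gene.

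Rarg, a receptor described as a regulator of HSC self-renewal in mice, had 5 regions. Rarg region 3 (chr15:102242950-102244663) and region 4 (chr15:102245300-102248233) were called in all 16 libraries. Region 4 covered the start at position 102246500, over which 14 libraries had a peak, and its percentile in the own list was 98.5, 98.6, 97.3 and 27.8 in old pre libraries. It was 97.4, 80.2, 96.5 and 54.0 in young pre libraries, 97.8, 97.9, 97.6 and 64.3 in old post libraries, and 97.8, 97.0, 97.5 and 97.8 in young post libraries. The low values belonged to the shortest lists and to young pre 2, where the region was split into 2 peaks. Old post 4 split it as well, and the higher of the 2 peaks is given in both. Rarg region 5 (chr15:102257146-102258342), at the other start, was called in the same 13 libraries as Rarb region 5. Rarg region 1 (chr15:102235247-102235920), at the far end of the gene, was called in 7 of 8 post libraries, against 3 of 8 pre libraries (4 gains, 3.95 expected, exact p = 1). Rarg region 2 was called in 3 libraries, old post 3 and young post 1 and 4.

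Rxra, the shared partner of the receptors, had no peak over either of its RefSeq promoter starts, at positions 27677201 and 27709292, in any library. The first of its promoters had 81.2% G and C, the highest of the 13, against a median of 52.4% for all RefSeq promoters and 46.4% for the peak-bearing Aldh1a1 start. Rxra region 1 (chr2:27676013-27676667), whose summit lay at -898 bp from the first start, was called in old pre 1 to 3, young pre 1 to 3, old post 2 and 3 and all 4 young post libraries. Rxra region 2 (chr2:27676772-27677077), between region 1 and that start, was called in young pre 1 and young post 1 only. The RefSeq span of the gene begins before both promoter starts. The summit of region 1 lay 142 bp outside that span, region 1 reached over its end, and region 2 lay within it. Rxra region 9 (chr2:27757965-27759462), 49388 bp after the second start, was called in all 16 libraries.

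Between stages, Rxra region 3 (chr2:27693600-27694048) was called in 7 of 8 post libraries, against 2 of 8 pre libraries (5 gains, 4.32 expected, exact p = 0.392, adjusted p = 1). Rxra region 4 (chr2:27703282-27703730) was called in 6 of 8 post libraries, against 2 of 8 pre libraries (4 gains, 2.99 expected, exact p = 0.152, adjusted p = 1). The other 4 Rxra regions were called in 3 to 15 libraries. One of them, region 6, was called in young post 1, 2 and 4 and in 0 of 4 old post libraries, with 0.64 old calls expected (exact p = 0.471, adjusted p = 1).

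Cyp26b1 clears retinoic acid by oxidising it. Its start at position 84593810 had no peak in any library, and its regions lay between 3371 and 68306 bp after it. Cyp26b1 region 4 (chr6:84583200-84585775) was the strongest, called in 15 libraries, all but old pre 4. Cyp26b1 region 2 (chr6:84569673-84569930) was called in old post 2 and in young post 1, 3 and 4, against 0 of 8 pre libraries (4 gains, 3.19 expected, exact p = 0.425, adjusted p = 1). The reverse was seen for 2 regions singled out after their values were known. Cyp26b1 region 3 (chr6:84579545-84579889) was called in old pre 1 and 2 only, which are all the libraries of transposition day 1. Cyp26b1 region 6 (chr6:84588934-84589409) was called in old pre 1 and 2 and young pre 2, against 0 of 8 post libraries. Both had too few calls for a test between stages. Regions 1, 5 and 7 were called in 12 or 13 libraries.

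Post and pre libraries were compared within donors, since the series pairs them. Of the 41 regions other than those of Aldh1a1, 31 had more calls in post libraries, against 75.6% of all regions, and 3 had fewer, against 5.0%. The stratified exact test with Benjamini-Hochberg adjustment called 0 of the 13 regions it could test other than those of Aldh1a1. The background was 0.391% of 8941, all of them higher in pre libraries. At an unadjusted p under 0.05 it counted 1 of the 13 (Rara region 9), against 2.89% of the regions tested, and without library weights it called 0. The median difference between observed and expected gains was 0.0 donors for the 41 regions and for all regions. The weights were fitted to the same calls, so nothing on stage is read from it. No test was made within each age, where there are 4 pairs.

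**Figure D3:**
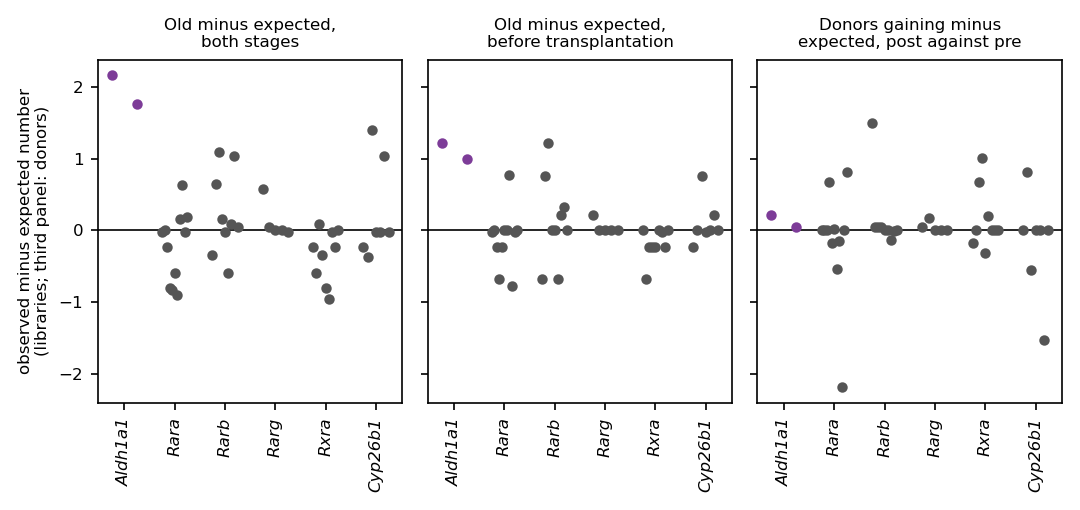
Observed minus expected number of old calls over both stages (left) and before transplantation (middle), and of donors that gained a call after transplantation (right), for each of the 43 regions by gene. Points at 0 are regions called as often as the library weights predict; the Aldh1a1 points (purple) stand at 2.16 and 1.76 on the left, and Rara region 9 at -2.19 on the right.

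The plot of observed and expected calls sets all genes side by side. For the 41 regions other than those of Aldh1a1, observed old calls over both stages stood between 0.96 below and 1.40 above the expected number. The highest value was at Cyp26b1 region 3, called only in the libraries of transposition day 1. Aldh1a1 region 1 was called in 7 of 8 old libraries, against 4 of 8 young, with 4.84 old calls expected, and region 2 in 7 of 8 old libraries, against 5 of 8 young, with 5.24 expected. Before transplantation, region 1 stood 1.22 above the expected 1.78 old calls, the same as Rarb region 3, and region 2 stood 1.0 above the expected 2.0. All these Aldh1a1 values include the libraries in which the gene was chosen.

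Ranks in post libraries could be set side by side for 11 of the 43 regions, those called in all 8 post libraries. Of the 11, 3 had every old post value above every young post value: both Aldh1a1 regions and Rara region 2, the last by less than 0.1 points at its closest libraries (97.2 each), against 7.71% of all ranked regions. Rara region 2 averaged 97.6 ± 0.5 in old post and 96.9 ± 0.3 in young post libraries (SD, n = 4 each), a difference of 0.7 points, below the median of all regions. None of the 11 was lower in every old post library, and the other 8 overlapped. Rara region 1 had the largest negative difference, at 43.2 ± 17.4 in old post and 61.8 ± 5.9 in young post libraries, with 17.9 in old post 4. Without a test, these ranks describe the 8 libraries.

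**Figure D4:**
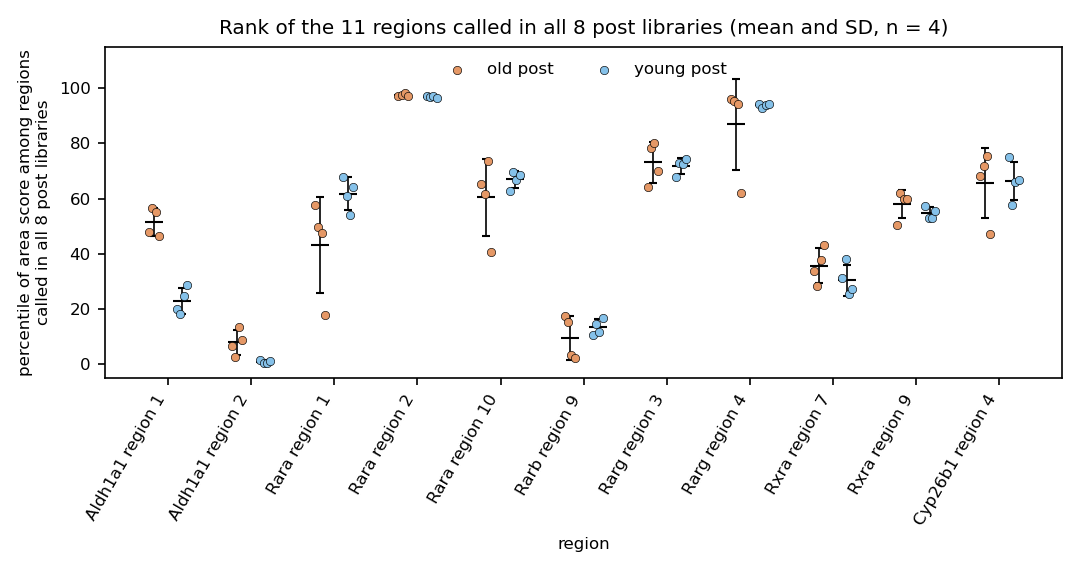
Percentile of the area score among the 12890 regions called in all 8 post libraries, for the 11 regions of the set that qualify; points are libraries (old post left, young post right) and bars mean and SD (n = 4). Aldh1a1 region 1 lies between 46.3 and 56.5 in old post and between 18.0 and 28.8 in young post libraries, without overlap.

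The regions of these genes were mostly away from starts. The start of a RefSeq promoter was covered by 5 of the 43 regions (11.6%), against 29.0% of all regions. Of the 43, 6 lay at a gene end, against 32.2% of all regions. In all 16 libraries 4 of the 43 were called (9.3%), against 5262 of all 33773, and their median width was 732 bp, against 830 bp. A further 6 regions near these genes were called in 1 library each and were left out by the rule: 3 at Rarb in old pre 2, 2 at Rara in young pre 1 and old post 3, and 1 at Rarg in young pre 1. Among the 8 regions called in 2 or 3 libraries, just inside the rule, were Rara region 6 and Rarb region 6.

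Other genes of the pathway were taken from a fixed list of 68, from retinol transport to response genes, of which 46 had a region, 176 regions in all. Over both stages 1 of the 90 testable regions passed higher in old libraries and 0 passed higher in young ones, against 0.25% and 0.0198% of all regions tested. After transplantation 1 of 29 passed, against 0.465% of all, before it 0 of 67, against 0%, and between post and pre 0 of 46, against 0.391%. At an unadjusted p under 0.05 the counts were 5 of 90 over both stages, 2 of 29 after transplantation, 2 of 67 before it and 2 of 46 between post and pre. The shares of all regions were 4.56%, 1.84%, 2.29% and 2.89% in the same order. The region that passed after transplantation lay at Lrat, which stores retinol as esters (chr3:82903731-82904257). Calls came from 3 of 4 old post libraries, against 0 of 4 young post (exact test, adjusted p = 0.0365), and from 1 of 4 old pre libraries, against 2 of 4 young pre. Without young post 1, 2, 3 or 4 its adjusted p was 0.0835, 0.0578, 0.0695 and 0.0782, and without old post 1, 2 or 3 it had too few calls for the test. The test without weights called 0 in every comparison.

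Of the enzymes that make or break down retinoic acid, Aldh1a3 had 2 regions, while Aldh1a2 and Aldh8a1 had none. The 3 further Cyp genes on the list, Cyp26a1, Cyp26c1 and Cyp1b1, had regions, 7 in all. The Cyp26c1 region chr19:37692821-37693392 was the one named for a difference of 5 or more calls with young higher. No old library called it (0 of 8), against 6 of 8 young libraries, of which 2 were young pre and 4 young post (exact p = 0.00308, adjusted p = 0.246). The median difference between observed and expected old calls was 0.0 libraries for the 176 regions, the same as for all regions, where the fitted weights hold it near 0. Of 16 other aldehyde dehydrogenase genes, 14 had a region, 26 in all. None of these 26 passed in any of the 4 comparisons, with 0 at an unadjusted p under 0.05 and 0 without weights, and 11, 6, 2 and 7 of them could be tested.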

How the data were processed

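Calls were taken from 16 ATAC-seq peak lists, 1 for each library. Per the submitters' processing notes the reads were handled with Trim Galore, cutadapt and Genrich on mm10, with FastQC and MultiQC, and ChIPseeker, featureCounts and DESeq2 are named too. The aligner, versions and settings are not recorded in the sources at hand. The deposited values are an area score, a capped score and -log10 p and q per peak, computed by the authors within each library and not scaled between libraries. The smallest area score in each list was about 200. Read depth is unknown, so no counting interval is given.

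Peaks on chromosomes 1 to 19 and X were merged (393 of 387029 peaks, 0.102%, lay elsewhere). Genes came from the RefSeq table of GRCm38.p6, the assembly of mm10. A region is called in a library where a peak overlaps it by 1 bp. Library weights came from a Rasch model fitted by conditional maximum likelihood over all regions. The exact two-sided test used regions with 4 to 12 calls among 16 libraries, or 3 to 5 among 8, and the donor-paired test needed 4 donors that differed. Pooling both stages counts the libraries of a donor as independent. Both tests were run on calls simulated independently from the same model, with or without a shift between old and young. That check covers neither calls that go together within a donor nor a shift between stages. The 7 genes and the pathway lists were chosen with earlier results of these data known.

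Aldh1a1 regions, regions at gene ends and regions that differed by 4 or more of 8 calls were named in full. Other pathway genes were named where a region passed the threshold or differed by 5 or more of 8 calls. For 1 region that passed over both stages, the gene and values are not reported here. Post and pre libraries were paired by donor as the series design states. Old and young libraries were not paired by number. Correlations of deviations between same-numbered old and young libraries were 0.01 to 0.5 before and -0.07 to 0.0 after transplantation. Between the post and pre libraries of a donor they were -0.35 to 0.28 for old and 0.01 to 0.04 for young donors. The donor pairing thus rests on the series design and not on these values. Replicates are separate old mice or young pools. Python 3.11.15, numpy 2.4.6, pandas 2.3.3, scipy 1.17.1 and Biopython 1.88 were used.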

Additional observations from a re-analysis of the deposited data

Results flagged for a closer look

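Among 26 groups of 4 libraries examined for a value far from the others, 1 stood out: Rarg region 4 in the old post libraries, ranked among regions called in all 8 post libraries. Its percentile was 62.1 in old post 4 and 94.4 to 96.0 in the other 3 old post libraries, against 92.9 to 94.5 in young post libraries. Old post 4 has the shortest post list, and there the region was split into 2 peaks. Chance gives about 1 such value in 20 groups.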

How the results depend on the processing

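Of the 41 regions other than those of Aldh1a1, 0 passed the threshold in each of the 4 comparisons. Under the alternatives with both stages together, none of these 41 regions passed. The pre calls of Aldh1a1 chose the gene, so no test of its regions is given there. Before transplantation, after it and between stages, 0 of the 41 passed under 19, 19 and 26 alternatives. These included leaving out each library in turn. With each list shortened to the third shortest, Aldh1a1 region 2 turned round between stages, to -12.5 percentage points (2 of 8 post and 3 of 8 pre libraries). With a replicate block that joins an old to a young library by number, 0 regions of the set passed over both stages, and region 1 could not be tested; the whole table gave 2 calls instead of 41. Without the replicate block, post against pre gave 0 regions of the set and 61 in the whole table, against 35. As a replicate block, the same numbers gave an adjusted p of 0.117 for the Lrat region; without weights it was 0.271. Over both stages the whole-table count ran from 0 to 65. The rank difference of Aldh1a1 region 1 ran from 27.0 to 30.6 points when each post library was left out. Alternatives for the gene assignment and the ranks were added after the data were seen. Without read counts, a missing peak and a shallow library cannot be told apart.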
